A study of Mus musculus with 6 samples.

Results

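Macrophages of the heart were followed through 10 marker genes, Adgre1, Cd68, Csf1r, Mertk, Mrc1, Cd163, Lyve1, Timd4, Folr2 and F13a1, which were taken by gene symbol from a table of 30914 genes. Each symbol had 1 row in the table, and the 10 genes were measured in 6 libraries. The libraries came from the hearts of wild-type male C57BL/6J mice, 8 weeks old at the start, which received angiotensin II (Ang II) at 1 μg/kg/min from osmotic pumps over 4 weeks. The Ang II group (n = 3) received nothing further, and the Ang II + Tec group (n = 3) was also given tectochrysin (Tec), a plant flavonoid, at 5 mg/kg in the last 2 weeks. Both groups therefore carried the Ang II infusion, and a heart without Ang II was not analysed here. The comparison asks how the transcripts that mark cardiac macrophages differed when Tec was added. Values are FPKM, the fragments of a transcript scaled to its length and to the mapped fragments of the library, so that levels can be compared between genes, and 3 values in a row are replicates 1, 2 and 3.

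Tissue macrophages of the heart take up dying cells and debris, survey the muscle and adjust repair, and in the adult they comprise cells seeded before birth and cells renewed from blood monocytes. Survival of the whole lineage depends on the receptor CSF1R, and the transcription factor PU.1 (gene Spi1) drives its gene program. Resident cells of the mouse heart are recognised by TIMD4, LYVE1 and FOLR2, together with scavenger receptors such as CD163 and MRC1, whereas F4/80 (gene Adgre1) and CD68 are carried by most macrophages whatever their origin. None of the markers belongs to macrophages alone: Lyve1 is also a gene of lymphatic endothelium, F13a1 of platelets and their precursors, and Mrc1 of some endothelial cells. In RNA from whole tissue, fewer macrophages and less of a transcript per macrophage cannot be told apart.

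The stretches ahead of the transcription start were read for 7 of the 10 genes (RefSeq, GRCm38.p6), without Adgre1, Lyve1 and Csf1r. Those of Cd68, Mrc1, F13a1 and Folr2, markers whose groups did not overlap, and of Timd4, a resident marker whose groups overlapped, are shown. F13a1 and Folr2 each have a second start inside the gene, which makes 9 stretches for the 7 genes, and their outer start is the one shown. Each run holds the 250 bases before the start, from 5′ to 3′ on the strand of the gene. The capitals mark the letters GAGGAA, the core that PU.1 reads, and TGCTGA, a half-site of the MAF factors, on either strand, so that TTCCTC and TCAGCA are their reverse complements. No match of the first overlapped a match of the second. The positions are chr11:69666171-69666420 on the minus strand for Cd68, chr2:14229164-14229413 on the plus strand for Mrc1, chr13:37050245-37050494 on the minus strand for F13a1, chr7:101857191-101857440 on the minus strand for Folr2 and chr11:46810549-46810798 on the plus strand for Timd4.
Cd68: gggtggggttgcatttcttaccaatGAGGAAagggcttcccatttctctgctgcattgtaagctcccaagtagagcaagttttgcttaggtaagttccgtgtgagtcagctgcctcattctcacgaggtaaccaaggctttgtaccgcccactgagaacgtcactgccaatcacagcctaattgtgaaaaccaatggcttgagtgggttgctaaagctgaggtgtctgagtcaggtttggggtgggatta
Mrc1: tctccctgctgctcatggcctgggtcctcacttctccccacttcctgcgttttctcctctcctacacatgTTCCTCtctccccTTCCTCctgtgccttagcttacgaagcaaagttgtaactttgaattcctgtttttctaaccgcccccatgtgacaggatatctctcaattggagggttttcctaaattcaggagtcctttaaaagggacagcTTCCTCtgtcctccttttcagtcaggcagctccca
F13a1: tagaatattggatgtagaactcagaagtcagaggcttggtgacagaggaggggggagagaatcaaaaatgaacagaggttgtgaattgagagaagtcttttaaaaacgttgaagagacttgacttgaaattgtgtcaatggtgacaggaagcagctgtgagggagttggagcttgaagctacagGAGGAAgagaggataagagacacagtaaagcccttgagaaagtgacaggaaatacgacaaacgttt
Folr2: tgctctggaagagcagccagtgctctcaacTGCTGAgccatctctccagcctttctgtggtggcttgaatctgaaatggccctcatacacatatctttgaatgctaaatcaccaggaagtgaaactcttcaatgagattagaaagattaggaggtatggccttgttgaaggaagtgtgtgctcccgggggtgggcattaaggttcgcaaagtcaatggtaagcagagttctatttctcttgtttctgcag
Timd4: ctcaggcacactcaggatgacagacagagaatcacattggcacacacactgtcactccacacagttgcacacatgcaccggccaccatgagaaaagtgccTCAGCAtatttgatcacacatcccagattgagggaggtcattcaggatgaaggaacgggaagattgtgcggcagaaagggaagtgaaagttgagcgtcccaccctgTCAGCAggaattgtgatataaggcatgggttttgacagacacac

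GAGGAA occurred 3 times ahead of Mrc1 and 1 time each ahead of Cd68 and F13a1, and TGCTGA occurred 2 times ahead of Timd4 and 1 time ahead of Folr2. At the inner starts, that of F13a1 held 0 matches of either motif and that of Folr2 held TGCTGA 1 time. Of the 9 stretches, 3 held GAGGAA (Cd68, Mrc1 and the outer start of F13a1) and 3 held TGCTGA (both starts of Folr2, and Timd4). The stretches of Cd163 and Mertk, which are not shown, held 0 matches of either motif. Of all 32851 promoter stretches of this length, 23.3% held GAGGAA and 16.1% held TGCTGA. These matches describe letters and not binding.

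The libraries were checked before the markers were compared. Cardiomyocyte genes were abundant in each heart, with a summed FPKM of 7219 to 8654 over 6 marker genes. Mitochondrially encoded transcripts took 41.3%, 40.1% and 48.9% of the summed FPKM with Ang II alone and 49.6% to 52.5% with added Tec. Ang II replicate 3 stood apart from the other Ang II hearts: its summed fibroblast markers were 125.2 FPKM against 557 and 709, and lay within the 107 to 178 of the Ang II + Tec hearts. Atrial markers summed to 6204, 10253 and 256 FPKM with Ang II alone and to 906, 5032 and 128 with added Tec. Nppa, which the paper measures (as Anp) as a hypertrophy gene, made up most of each sum, so the sums do not show which hearts held atrium. Myl7, another gene of this list, was at 419, 332 and 0 FPKM with Ang II alone and at 0, 1040 and 1.58 with added Tec. The hearts thus differed in atrial transcripts within both groups. The part of these differences in the results for macrophages was not tested, and results are therefore also given without Ang II replicate 3.

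Cd68 and Adgre1, markers of macrophages in general, had the largest differences, and Lyve1, Cd163 and Mertk had the smallest. Of the 10 markers, 9 had a lower mean with Tec on the scale of log2(FPKM + 1), as did 80% of the 13089 genes tested, but 0 were called differentially expressed, which required an adjusted p-value under 0.05 and a log2 fold change of at least 1 in size (limma with Benjamini-Hochberg adjustment over those genes, of which 0.16% were called, 0.0764% as lower). All 10 passed the filter of 0.5 FPKM in at least 3 libraries. Of the 10, 6 were lower at an unadjusted p-value under 0.05, where 16.5% of all tested genes were, and 0 were higher, against 2.09% of all tested genes. Before any rescaling of the libraries, the groups lay apart for 5 of the 10, each lower with Tec. Of the tested genes, 18.9% were lower and 2.9% higher without overlap. The median log2 fold change was -0.49 over the 10 markers and -0.17 over all tested genes.

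**Figure D1:**
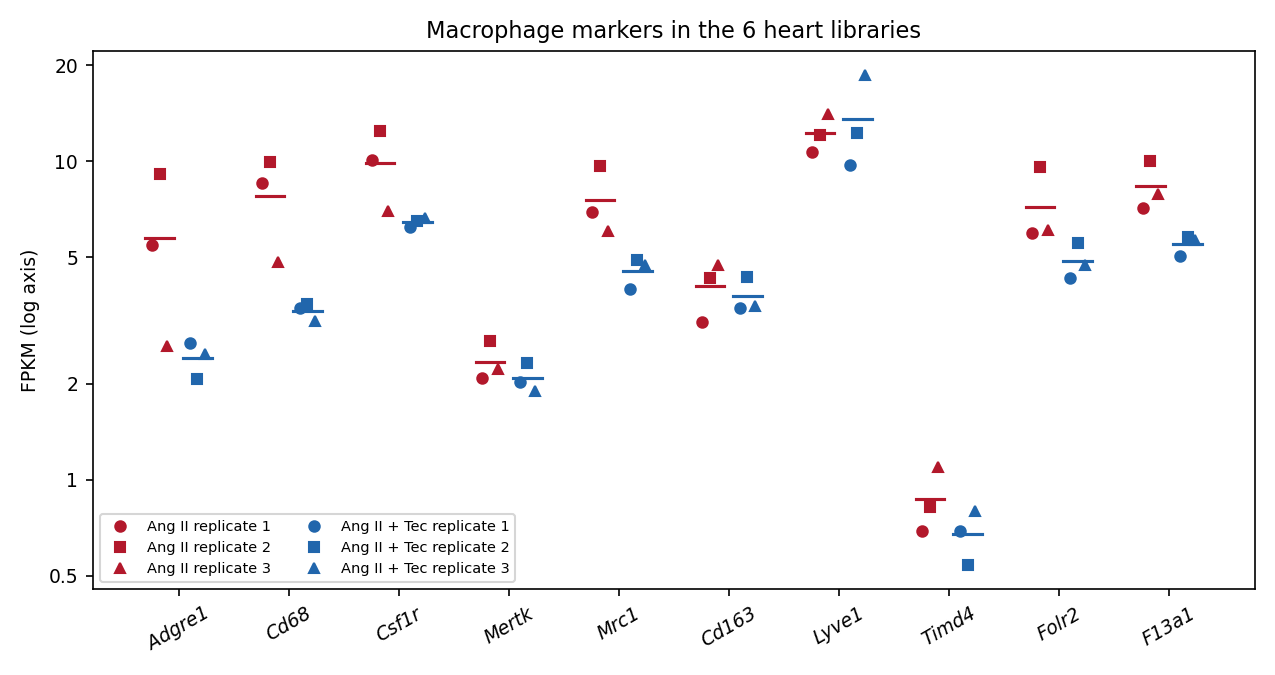
FPKM of the 10 macrophage markers (log axis) in each library, with Ang II in red and Ang II + Tec in blue, a symbol for each replicate and a line at the mean of a group. The groups are apart for Cd68, Csf1r, Mrc1, Folr2 and F13a1 and overlap for the other 5 markers, and Timd4 is the lowest marker in each library.

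Cd68, which encodes a heavily glycosylated protein of lysosomes and late endosomes, had an FPKM of 8.55, 9.95 and 4.81 with Ang II alone and of 3.46, 3.55 and 3.16 with added Tec. Each Ang II heart lay above each Tec-treated heart, although Ang II replicate 3 was the closest to them. The mean was 7.77 ± 2.66 (SD, n = 3) against 3.39 ± 0.204 (SD, n = 3), and the treated mean was 43.6% of the other. On the log2 scale the change was -0.95 (standard error 0.23, limma adjusted p-value 0.201), which was the lowest adjusted p-value of the 10 markers. The gene (ENSMUSG00000018774) lies on chromosome 11 (GRCm38, as are the positions that follow) from 69664213 to 69666153, is short, and overlaps no other gene of the annotation.

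Adgre1, which encodes the adhesion receptor F4/80, the classical surface marker of mouse macrophages, had an FPKM of 5.44, 9.10 and 2.63 with Ang II alone. It had 2.68, 2.07 and 2.48 with added Tec. Ang II replicate 3 lay inside the range of the treated hearts, so that the groups overlapped even though the treated mean was 42.1% of the other. Its log2 fold change was -0.86 (standard error 0.34, 95% interval -1.65 to -0.072, limma adjusted p-value 0.249). Adgre1 varied most among the 10 markers, with a highest library at 4.40 times the lowest. The gene (ENSMUSG00000004730) is on chromosome 17 from 57358691 to 57483527.

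Csf1r, the receptor for the growth factors CSF1 and IL-34, had an FPKM of 10.1, 12.5 and 6.97 with Ang II alone and of 6.22, 6.48 and 6.65 with added Tec. The treated hearts were nearly alike, and the lowest Ang II heart was only slightly above them. The log2 fold change was -0.51 (standard error 0.19, limma adjusted p-value 0.242), with a treated mean at 65.6% of the other. Hmgxb3, on the opposite strand, overlaps Csf1r and had 1.21 to 1.73 FPKM, and no strand-specific counting is stated, so reads of the overlap cannot be assigned.

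Mertk, a receptor tyrosine kinase that recognises apoptotic cells through the bridging proteins GAS6 and protein S, differed little. Its FPKM was 2.09, 2.72 and 2.23 with Ang II alone and 2.02, 2.32 and 1.90 with added Tec, and the groups overlapped. On the log2 scale the change was -0.12 (95% interval -0.41 to 0.17, limma adjusted p-value 0.571). The gene (ENSMUSG00000014361) is on chromosome 2 from 128698956 to 128802894. The other general markers, Adgre1, Cd68 and Csf1r, had treated means between 42.1% and 65.6% of the Ang II mean, whereas that of Mertk was 88.6%.

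Among the scavenger receptors, Mrc1 and Cd163 differed in their values. Mrc1, the mannose receptor CD206, had an FPKM of 6.94, 9.64 and 6.05 with Ang II alone and of 3.97, 4.88 and 4.71 with added Tec. The groups did not overlap, and the log2 fold change was -0.61 (standard error 0.17, limma adjusted p-value 0.216). Cd163, the receptor that clears complexes of haptoglobin and haemoglobin, had 3.12, 4.29 and 4.72 FPKM and 3.47, 4.32 and 3.52 FPKM. Here the groups overlapped throughout, and Ang II replicate 3, the lowest Ang II heart for Mrc1, was the highest of the 6. The log2 fold change of Cd163 was -0.071 (95% interval -0.44 to 0.30). Mrc1 (ENSMUSG00000026712) lies on chromosome 2 from 14229392 to 14332057 and hosts Mir511, and Cd163 (ENSMUSG00000008845) lies on chromosome 6 from 124304656 to 124330527.

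The 3 genes by which resident cells are recognised did not share a direction of their means. Lyve1, a receptor for hyaluronan, was at 10.7, 12.1 and 14.1 FPKM with Ang II alone and at 9.74, 12.2 and 18.6 with added Tec. It was the only marker with a higher mean with Tec, and this rested on Ang II + Tec replicate 3. Its log2 fold change was 0.093 (95% interval -0.44 to 0.62, limma adjusted p-value 0.818), and without that heart it was -0.15. The gene (ENSMUSG00000030787) is on chromosome 7 from 110850607 to 110863239.

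Timd4, which encodes a receptor for phosphatidylserine on dying cells, was low in all libraries. Its FPKM was 0.69, 0.82 and 1.10 with Ang II alone and 0.69, 0.54 and 0.80 with added Tec, and the groups overlapped. The log2 fold change was -0.15 (95% interval -0.44 to 0.13), a scale that understates the change of a gene near 1 FPKM. With 0.1 in place of 1 added to the FPKM it was -0.31. The gene (ENSMUSG00000055546) is on chromosome 11 from 46810800 to 46844332.

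Folr2, the folate receptor beta, had an FPKM of 5.94, 9.58 and 6.06 with Ang II alone and of 4.31, 5.54 and 4.71 with added Tec. The lowest Ang II heart lay just above the highest treated heart, so the groups did not overlap. On the log2 scale the change was -0.46 (standard error 0.19, limma adjusted p-value 0.259). The gene (ENSMUSG00000032725, chromosome 7 from 101839988 to 101857194) shares its span with the antisense transcript Gm10602, at 0.53 to 1.00 FPKM.

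F13a1, which encodes the A subunit of the cross-linking enzyme factor XIII, had 7.12, 10.02 and 7.88 FPKM with Ang II alone and 5.05, 5.80 and 5.66 FPKM with added Tec. Again each Ang II heart was above each treated heart. Its log2 fold change was -0.51 (standard error 0.14, limma adjusted p-value 0.212), and the treated mean was 66.0% of the other. The gene (ENSMUSG00000039109) is on chromosome 13 from 36867178 to 37050244. With 3 hearts in each group, no two-sided p-value of an exact permutation test can be below 0.1. Before any rescaling, this lowest value was reached by the 5 markers whose groups did not overlap.

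**Figure D2:**
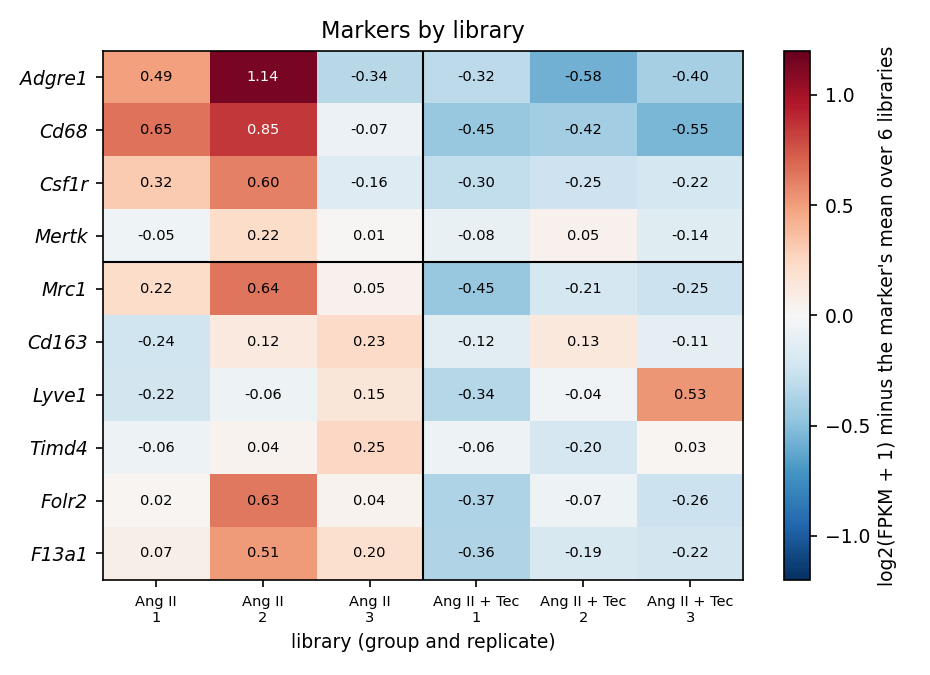
Values of log2(FPKM + 1) of each marker in each library after the mean over the 6 libraries was subtracted, with general markers above the horizontal line and scavenger and resident markers below it. Ang II replicate 3 is below the mean for Adgre1 (-0.34), Cd68 (-0.07) and Csf1r (-0.16) and above it for Cd163 (0.23), Lyve1 (0.15) and Timd4 (0.25). It is at 0.01 for Mertk, 0.05 for Mrc1, 0.04 for Folr2 and 0.20 for F13a1.

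The library that stood apart did so differently for the means of the 2 kinds of marker, although markers also differed within a kind. In Ang II replicate 3 the mean of log2(FPKM + 1) over the 4 general markers was 2.27, against 2.76 and 3.11 in the other Ang II hearts and 2.08 to 2.12 in the treated hearts. Over the 6 scavenger and resident markers it was 2.71, between the 2.52 and 2.88 of the other Ang II hearts. The treated hearts were at 2.28, 2.47 and 2.51, each below the lowest Ang II heart, the highest of them only just. This was read before any rescaling of the libraries, and a gap this narrow need not hold after it.

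Ang II replicate 3 was set apart after its values were seen. It was the Ang II heart nearest the treated hearts for Adgre1, Cd68 and Csf1r, so leaving it out enlarges these differences by construction. Without Ang II replicate 3, 2 of the 10 markers were called, as were 4.22% of the 12900 genes then tested. These markers were Adgre1 with a log2 fold change of -1.25 (limma adjusted p-value 0.00734) and Cd68 with -1.22 (limma adjusted p-value 0.00194). The decreases of Csf1r (-0.71, limma adjusted p-value 0.00895), Mrc1 (-0.74, limma adjusted p-value 0.0157) and F13a1 (-0.54, limma adjusted p-value 0.0358) were then also under the threshold on the adjusted p-value but smaller than the limit on the fold change. These 5 markers stand against 26.1% of the genes then tested that were lower at an adjusted p-value under 0.05, and the 6 markers lower at an unadjusted p-value under 0.05 stand against 39.2%. Cd163 (0.026), Lyve1 (0.19), Timd4 (-0.068) and Mertk (-0.14) were within 0.19 of 0 without this heart, and 8 of the 10 markers had a lower mean with Tec, as did 81.8% of the genes then tested. The median without this heart was -0.55 over the 10 markers and -0.24 over all genes then tested. Without Ang II replicate 2, the heart with the highest value of 7 of the 10 markers, the log2 fold change was -0.51 for Adgre1, -0.76 for Cd68 and -0.26 for Folr2. When Ang II replicate 1 or Ang II replicate 2 was left out, 0 of the 10 markers were called.

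**Figure D3:**
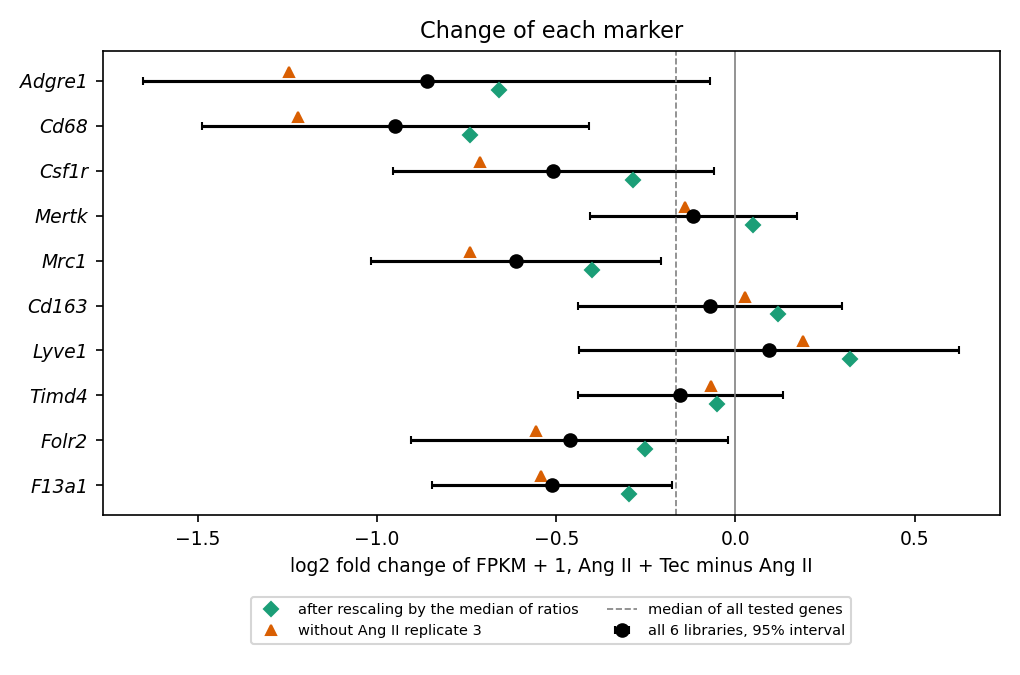
Log2 fold change of FPKM + 1 between the groups for each marker, with the 95% interval of the limma fit (black), the value with median-of-ratios scaling (green) and the value without Ang II replicate 3 (orange); the dashed line is the median of all tested genes over the 6 libraries, -0.17 (-0.24 without Ang II replicate 3 and 0.0087 with that scaling). The intervals of Adgre1, Cd68, Csf1r, Mrc1, Folr2 and F13a1 lie below 0 and those of the other 4 markers include 0.

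The scaling of the libraries moved the markers near 0 across it. Since most genes had a lower mean with Tec, median-of-ratios scaling of the libraries brought the median of all tested genes from -0.17 to 0.0087. After this scaling the median of the 10 markers was -0.27, and 7 of the 10 were lower. Cd68 was at -0.74, Adgre1 at -0.66, Mrc1 at -0.40, F13a1 at -0.30, Csf1r at -0.29 and Folr2 at -0.25. Cd68 and Mrc1 were then lower at an unadjusted p-value under 0.05, as were 7.9% of the tested genes. Mertk (0.050) and Cd163 (0.12) had the opposite sign after this scaling, and Lyve1 was at 0.32.

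The order of the levels differed between the groups. In the Ang II group the means ran from Lyve1 (12.3 ± 1.72 FPKM, SD, n = 3) through Csf1r (9.84 ± 2.76), F13a1 (8.34 ± 1.5), Cd68 (7.77 ± 2.66), Mrc1 (7.54 ± 1.87), Folr2 (7.19 ± 2.07), Adgre1 (5.72 ± 3.24), Cd163 (4.04 ± 0.828) and Mertk (2.35 ± 0.331) to Timd4 (0.870 ± 0.210). Neighbours from Lyve1 down to Cd163 differed by less than the sum of their SDs, and Cd163, Mertk and Timd4 by more. In the Ang II + Tec group the order was Lyve1 (13.5 ± 4.57), Csf1r (6.45 ± 0.217), F13a1 (5.50 ± 0.399), Folr2 (4.85 ± 0.627), Mrc1 (4.52 ± 0.484), Cd163 (3.77 ± 0.477), Cd68 (3.39 ± 0.204), Adgre1 (2.41 ± 0.311), Mertk (2.08 ± 0.216) and Timd4 (0.677 ± 0.131), where the neighbours from F13a1 down to Cd68, and Adgre1 and Mertk, differed by less than the sum of their SDs and the other neighbours by more. Cd68 ranked 3, 4 and 6 of the 10 in the Ang II libraries and 7 in each treated library, whereas Cd163 ranked 8, 8 and 7 and then 6 in each. Lyve1 made up 17.6%, 15.0% and 24.9% of the summed FPKM of the 10 markers with Ang II alone and 23.4%, 25.6% and 35.7% with added Tec, with Ang II replicate 3 within the range of the treated hearts.

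Ratios within a library do not depend on how libraries are scaled against each other. Relative to Csf1r, Cd68 was at 0.850, 0.797 and 0.690 with Ang II alone and at 0.556, 0.548 and 0.475 with added Tec, the only one of the 9 ratios to Csf1r whose groups did not overlap. Cd68 was thus below its Ang II range also per unit of Csf1r in each treated heart. The mean ratios were 0.777 and 0.700 for Mrc1, 0.743 and 0.752 for Folr2, and 0.880 and 0.853 for F13a1, in the Ang II and the Ang II + Tec group, with overlap in each. Lyve1 relative to Csf1r was at 1.06, 0.966 and 2.02 with Ang II alone and at 1.57, 1.89 and 2.80 with added Tec, and overlapped only through Ang II replicate 3. These ratios were chosen after the values were seen and are given as a description.

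**Figure D4:**
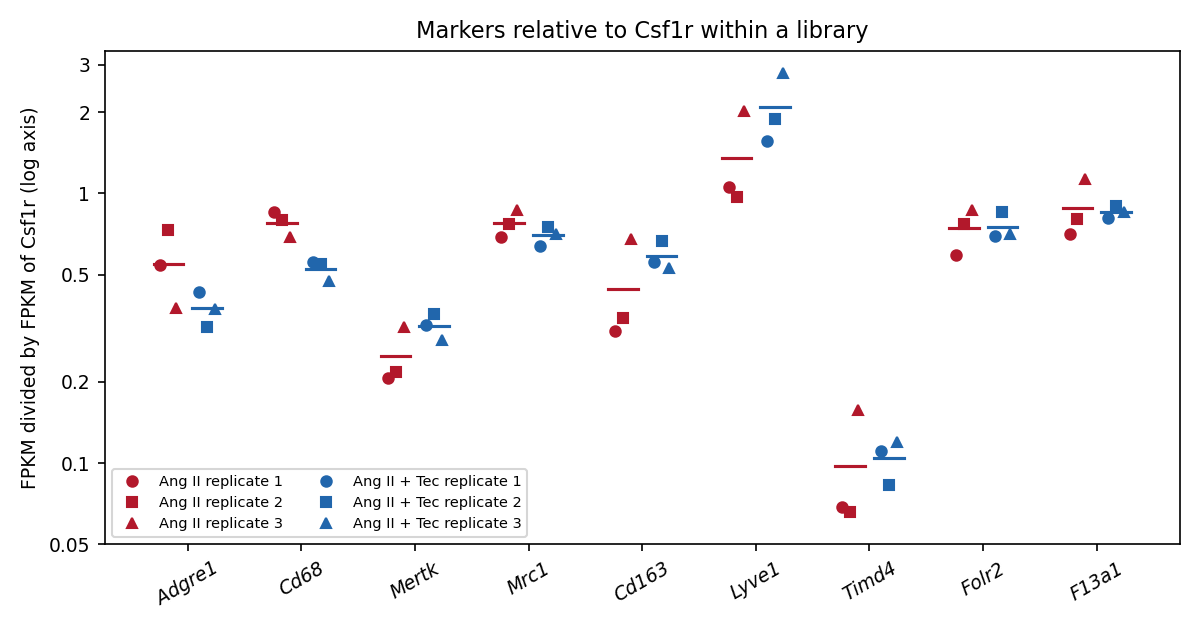
FPKM of 9 markers divided by the FPKM of Csf1r in the same library (log axis), with Ang II in red, Ang II + Tec in blue, a symbol for each replicate and a line at the mean. The groups are apart for Cd68, and Ang II replicate 3 (red triangle) is the highest of the Ang II replicates for Mertk, Mrc1, Cd163, Lyve1, Timd4, Folr2 and F13a1.

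The same ratios were taken to Ptprc, the pan-leukocyte gene CD45, which was low, at 0.35 to 0.91 FPKM, and below the filter. Cd68 relative to Ptprc was 13.8, 10.9 and 13.7 with Ang II alone and 8.65, 8.66 and 8.54 with added Tec. Adgre1 relative to Ptprc was 8.77, 10.0 and 7.51 and then 6.70, 5.05 and 6.70. Both ratios were without overlap between the groups, with Ang II replicate 3 on the side of its own group, and the other 8 ratios to Ptprc overlapped. For Adgre1 this rested on Ptprc, which was lowest in Ang II replicate 3 (0.35 FPKM). Adgre1 itself was at 2.63 FPKM in that heart, inside the range of the treated hearts. The mean of log2(FPKM + 1) over the 6 scavenger and resident markers minus that over the 4 general markers was -0.23, -0.23 and 0.44 with Ang II alone and 0.16, 0.36 and 0.43 with added Tec. The difference between the groups in this measure was 0.32 with all hearts and 0.55 without Ang II replicate 3, and Ang II replicate 3 was the highest of the 6.

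Other genes of the lineage were described by lists. For comparison, 80% of all tested genes had a lower mean with Tec, and 16.5% were lower at an unadjusted limma p-value under 0.05. Of 24 further macrophage genes 20 were tested, 19 had a lower mean with Tec, 15 were lower at an unadjusted p-value under 0.05 and 0 were called, with a median log2 fold change of -0.68. This median was close to the -0.69 of the 4 general markers and below the -0.31 of the 6 scavenger and resident markers. Neither kind of marker was uniform. Mrc1 (-0.61), F13a1 (-0.51) and Folr2 (-0.46) were near the general marker Csf1r (-0.51). The general marker Mertk (-0.12) was near Timd4 (-0.15), Cd163 (-0.071) and Lyve1 (0.093). The lowest were Ctss (-1.19, standard error 0.37), which encodes a lysosomal protease, and Tyrobp (-1.18, standard error 0.26), which encodes the adaptor DAP12. The highest were Ccl24 (0.31, standard error 0.18), a chemokine for eosinophils, and Clec10a (-0.23, standard error 0.16), a lectin. With median-of-ratios scaling the median of the list was -0.51, beside -0.47 for the general and -0.15 for the scavenger and resident markers. Without Ang II replicate 3, 17 of the 20 genes were tested and their median was -0.98 (-0.68 for these 17 with all hearts), beside -0.97 for the general and -0.31 for the scavenger and resident markers.

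Of 17 genes of recruited monocytes and macrophages, 11 were tested, 10 had a lower mean with Tec and 6 were lower at an unadjusted p-value under 0.05, with a median of -0.82. Without Ang II replicate 3, 9 of them were tested and their median was -1.10, against -0.75 for these 9 with all hearts. The lowest were Spp1 (-2.06, standard error 0.98), which encodes osteopontin, and Ccl8 (-1.91, standard error 0.48), a monocyte chemokine, and the highest were Ly6c2 (0.064, standard error 0.11), a monocyte surface antigen, and Fabp5 (-0.32, standard error 0.14). The summed FPKM of the list was 85.9, 127 and 28.2 with Ang II alone and 25.4, 44.2 and 28.2 with added Tec, so that Ang II replicate 3 lay within the treated hearts. Cd9, Lgals3 and Spp1 made up most of this sum in each library, and which cells gave them was not tested. The 4 tested pan-leukocyte genes (Cd52, Laptm5, Coro1a and Cd53) all had groups without overlap, lower with Tec, and a median of -1.0. Of all tested genes, 18.9% were lower without overlap. Ptprc, also of this list, was below the filter and its groups overlapped.

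**Figure D5:**
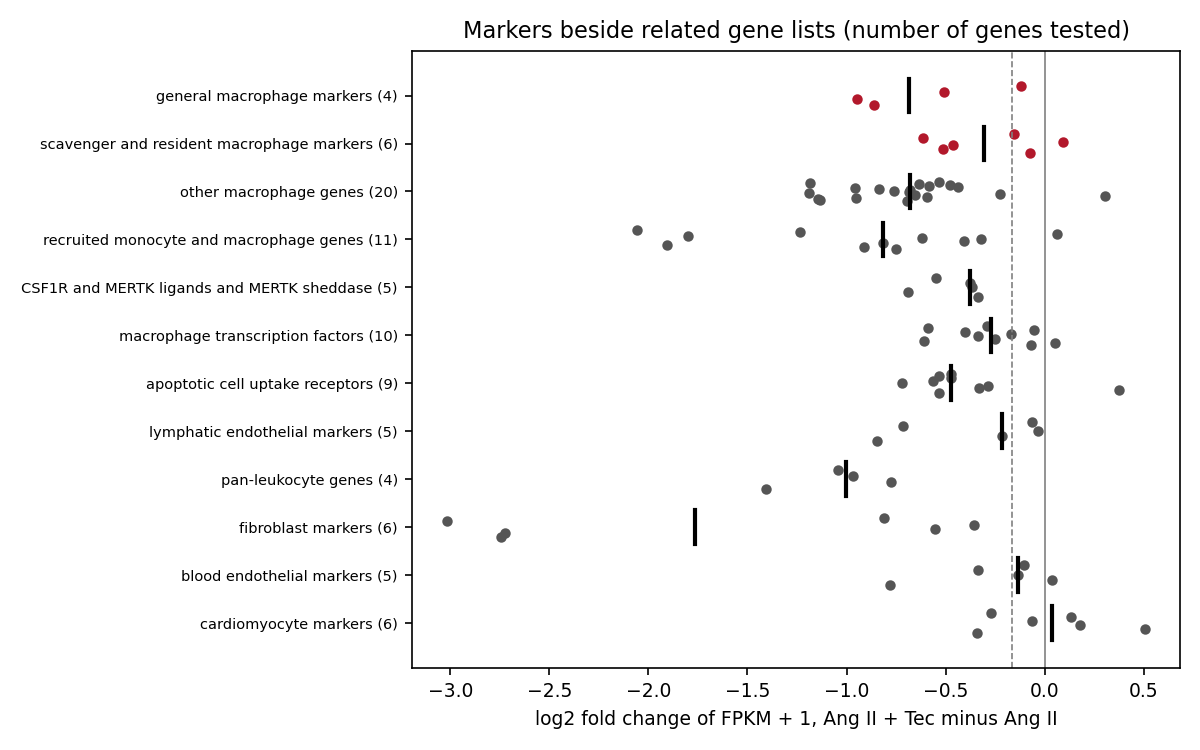
Log2 fold change of FPKM + 1 between the groups for the tested genes of each list, a point for each gene, with the 10 markers in red, the median of a list as a black bar and the median of all tested genes (-0.17) as a dashed line. The medians of the general markers (-0.69) and of the other macrophage genes (-0.68) lie below that of the scavenger and resident markers (-0.31). Single markers of both kinds overlap in their log2 fold changes.

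On the side of the ligands, Csf1, the main growth factor for CSF1R, was at 11.7, 12.1 and 8.62 FPKM with Ang II alone and at 5.85, 7.02 and 5.92 with added Tec. The groups did not overlap, and the log2 fold change was -0.69 (standard error 0.15, limma adjusted p-value 0.185). Il34, the other ligand, was at -0.38 (standard error 0.18), Pros1 and Gas6, the bridging proteins of MERTK, at -0.55 (standard error 0.22) and -0.37 (standard error 0.25), and Adam17, a protease that sheds MERTK, at -0.34 (standard error 0.16). Of these 5 tested genes, 2 were lower at an unadjusted p-value under 0.05 and 0 were called. Csf2 was listed at 0 in all 6 libraries.

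Of 12 transcription factors of macrophages 10 were tested, 9 had a lower mean with Tec and 2 were lower at an unadjusted p-value under 0.05, with a median of -0.27. The lowest were Id3 (-0.61, standard error 0.27) and Spi1 (-0.59, standard error 0.17). Spi1 was at 2.28, 3.03 and 1.67 FPKM with Ang II alone and at 1.24, 1.35 and 0.97 with added Tec, without overlap. The highest were Cebpb (0.052, standard error 0.17) and Nr1h3 (-0.055, standard error 0.14). With Ang II alone, Id3 and Cebpb had means of 45.7 and 44.4 FPKM against 2.33 for Spi1. Which cells of the heart gave these transcripts was not tested. Of 12 genes for the uptake of apoptotic cells 11 were in the table and 9 were tested, of which 8 had a lower mean and 3 were lower at an unadjusted p-value under 0.05. Itgav (-0.72, standard error 0.30) and Itgb5 (-0.56, standard error 0.42), which encode integrin subunits, were the lowest, and the fatty acid and phospholipid receptor Cd36 (0.37, standard error 0.16) and Elmo1 (-0.28, standard error 0.15) were the highest. Cd36 had means of 218 FPKM with Ang II alone and 279 with added Tec, and its cells of origin were not tested. Of all tested genes, 80% had a lower mean with Tec and 16.5% were lower at an unadjusted limma p-value under 0.05.

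Markers of other cells that carry some of these transcripts were read beside them. The 7 lymphatic endothelial genes summed to 46.7, 44.3 and 24.9 FPKM with Ang II alone and to 19.7, 23.5 and 23.9 with added Tec, of which Ccl21a made up most. In this list 5 of 5 tested genes had a lower mean with Tec, as did 80% of all tested genes. The lowest were Ccl21a (-0.85, standard error 0.25) and Pdpn (-0.72, standard error 0.46), and the highest were Mmrn1 (-0.031, standard error 0.19) and Prox1 (-0.065, standard error 0.14). Prox1, the transcription factor that specifies lymphatic endothelium, was at 3.77, 3.01 and 3.21 FPKM and at 3.58, 3.23 and 2.63 FPKM, with overlap. Which cells gave Prox1 and Pdpn, and the part of lymphatic vessels in the values of Lyve1, were not tested. The 6 markers of platelets and megakaryocytes summed to 1.08, 1.92 and 1.45 FPKM with Ang II alone and to 0.29, 1.37 and 0.55 with added Tec, and their part in the values of F13a1 was not tested.

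Other leukocytes gave low values. Markers of T cells summed to 0.23 to 0.38 FPKM, of B cells to 0.31 to 0.72 FPKM and of dendritic cells to 2.04 to 3.54 FPKM over the 6 libraries, with 0, 0 and 2 genes tested (Clec9a at -0.092 and Zbtb46 at -0.13). Markers of neutrophils summed to 0.33 to 3.22 FPKM, with Ly6g listed at 0 in all libraries and S100a9, the tested gene, at 0.22. Of the 6 fibroblast markers, 6 had a lower mean with Tec, with a median of -1.77. The 5 markers of blood endothelium had a median of -0.13, which turned to 0.11 with median-of-ratios scaling, and the 6 of cardiomyocytes had a median of 0.035, or 0.27 with that scaling. The 4 atrial markers had a median of -1.82, with overlap between the groups in each.

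The 5 tested genes with a mean of at least 1 FPKM whose profile over the 6 libraries was most like the mean of the 10 markers were Pgm2 (Pearson r 0.997), Sephs1 (0.996), Tyrobp (0.995), Gm14326 (0.994) and Gm12655 (0.994). This is a description over 6 libraries that fall into 2 groups. All genes of a library share its depth and composition, which can differ between libraries. Tyrobp was at 17.2, 29.9 and 14.1 FPKM with Ang II alone and at 6.81, 8.66 and 8.57 with added Tec.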

How the data were processed

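RNA of mouse hearts was sequenced in 6 libraries, 3 from each of the groups Ang II and Ang II + Tec. Per the paper's methods, reads were cleaned with Cutadapt and checked with FastQC, and the authors deposited FPKM for 30914 genes. The submitters' processing notes name Bowtie 0.12.2, HISAT2 2.0 and StringTie 1.3.0, with no role, and the build mm8. The coordinates of 86.8% of 30832 shared genes, and of 9 of the 10 markers (not Csf1r), equal those of GENCODE M21 on GRCm38, and gene positions are given on that build. Exact library totals are not in the table, and low values did not fall on whole multiples of a step (22.0% to 27.3% within 0.1 of one, against 20% for even spacing), so depth is unknown and no counting interval is given.

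Values of log2(FPKM + 1) were fitted with limma 3.58.1 (lmFit, eBayes with trend) in R 4.3.3 on genes with at least 0.5 FPKM in at least 3 libraries, without covariates, with Benjamini-Hochberg adjustment over 13089 genes. Nothing in the labels states whether the hearts were processed separately, so p-values measure the spread between these libraries. The markers and the gene lists were chosen with earlier results of these data known. Where genes of a list of 4 or more tested genes are named, they are the 2 lowest and the 2 highest, and in shorter lists the tested genes. Il34, Csf2, Ptprc, Ly6g, Hmgxb3 and Gm10602 were named after their values were seen, as was the choice of the promoters. Alternatives changed the pseudocount, filter, scaling, variance model, library weights and replicate block and left out each library. Promoters were taken from RefSeq (GRCm38.p6). Adgre1 and Lyve1 had no entry, and Csf1r was left out. Tables were handled with pandas 2.3.3 and drawn with matplotlib 3.10.9.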

Additional observations from a re-analysis of the deposited data

How the results depend on the processing

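Under 17 alternatives, 159 of 169 values for single markers kept their direction and their side of the threshold. Since 0 markers were called in the fit reported, keeping that side is a weak check. The markers at an unadjusted limma p-value under 0.05 went from 6 to 2 with median-of-ratios scaling and also with quantile normalization. The number of the 10 markers called was 0 in the fit reported, 2 with library weights (Adgre1 and Cd68, in a fit of weights that stopped before convergence) and 0 to 2 when 1 library was left out (2 without Ang II replicate 3). The number of all genes called was 21, and it was 3 without a filter, 522 with library weights and 0 to 544 when 1 library was left out. It was 3 and 6 without Ang II replicates 1 and 2, 544 without Ang II replicate 3, and 0 when each Tec-treated heart was left out in turn, where 1219, 2324 and 1172 genes had an unadjusted limma p-value under 0.05.

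Signs turned for Mertk (0.050 with median-of-ratios scaling, 0.067 with quantile normalization) and for Cd163 (0.12 and 0.13). When 1 library was left out, Cd163 ranged from -0.21 to 0.026 and Lyve1 from -0.15 to 0.29, and their signs turned without Ang II replicate 3 and without Tec-treated replicate 3. Cd68 ranged from -1.22 to -0.74 and Adgre1 from -1.25 to -0.51 over all alternatives. The cause of these shifts was not tested. Whether the replicate numbers pair the libraries is not stated, and the values do not settle it. Deviations of libraries with the same number correlated at -0.039, 0.43 and 0.38. Ang II replicates 2 and 3 correlated best with the treated library of the same number, but Ang II replicate 1 correlated best with Ang II + Tec replicate 2. With the replicate block 22 genes and 0 markers were called, and 3308 genes had an unadjusted limma p-value under 0.05, against 2439 in the fit reported. Without a known depth, no limit of detection can be given for Timd4.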
